A study of Mus musculus with 20 samples.

Results

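The mouse Hox genes are the 39 members of 4 clusters: 11 in the Hoxa cluster on chromosome 6, 10 in the Hoxb cluster on chromosome 11, 9 in the Hoxc cluster on chromosome 15 and 9 in the Hoxd cluster on chromosome 2. They were chosen by symbol, as every gene whose Ensembl identifier maps to Hoxa, Hoxb, Hoxc or Hoxd followed by a number, out of 47643 genes in the count table. Their levels were followed by RNA sequencing through chemical reprogramming, in which small molecules alone turn mouse embryonic fibroblasts (MEFs) into chemically induced pluripotent stem (CiPS) cells. Every sample was of the B6DBA strain. The groups were cells given crotonic acid at days 20, 24 and 28, untreated reprogramming cells at days 16, 20, 24 and 28, CiPS lines, 1 embryonic stem (ES) cell line named OG4, and MEFs. Crotonic acid, which cells can turn into the CoA donor used to crotonylate histones, was in the induction medium at 6 to 8 mM between days 16 and 28. The series set out to examine by what route the acid helps CiPS cells arise. Each reprogramming group had 2 libraries. The CiPS lines were 2 made with crotonic acid and 1 made by the three-step method, each a single line, and MEFs and ES cells had 1 library each. A CiPS line of the BrdU method was not analysed here.

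Hox genes encode homeodomain transcription factors that give cells their position along the body axis. Genes lie within a cluster in the order of their use, with the first paralog groups used early and toward the head and the last ones late and toward the tail. Retinoic acid and Cdx factors switch the clusters on, Polycomb complexes hold them silent in pluripotent cells, and fibroblasts keep the Hox code of the body site they came from. Members of paralog groups 1 to 3 are called anterior here, those of groups 4 to 8 central, and those of groups 9 to 13 posterior.

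Libraries held 17475848 to 26609755 counted reads. Pluripotency markers matched the labels: 6 genes summed to 3336 FPKM (fragments per kilobase of gene, scaled to library depth by the authors) in the three-step line, 2991 and 2739 in the crotonic acid lines and 2741 in ES cells, against 0.654 in MEFs. The 8 fibroblast markers, none at 0 in any library, summed to 1781, 2061 and 2408 FPKM in the lines and 2582 in ES cells, against 9231 in MEFs. The day 16 replicates stood apart from each other, with fibroblast sums of 1191 and 414.1 FPKM. Liver transcripts marked 2 crotonic acid libraries, replicate 2 of day 20 and replicate 1 of day 28, with albumin (Alb) at 10.8 and 29.6 FPKM, as they did the MEF library at 20.8, while Alb was at most 0.111 in the other 16. The counts of members called for crotonic acid, and the members called, are given with and without both. Other values for crotonic acid include both. The labels do not say whether CiPS and ES cells were separated from other cells before RNA was taken. In bulk samples such as these, fewer cells that use a gene and less RNA per cell cannot be told apart. No label tells whether replicates are separate cultures, and the spread that the p-values rest on may therefore be technical.

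Promoters of 22 of the 39 members were found in RefSeq (GRCm38.p6), as windows of 300 bases with 250 before and 50 after the start of transcription. Those of 3 members that the results below turn on are shown, because the genes took different courses: Hoxb8, an example of the central Hoxb genes that declined, Hoxd9, higher in reprogramming cells than in MEFs, lines or ES cells, and Hoxd13, near 0 in MEFs and present in every later library. The capitals mark TTTATG or its reverse complement, the core that Cdx factors bind.
Hoxb8 (ENSMUSG00000056648), chr11:96281655-96281954, plus strand: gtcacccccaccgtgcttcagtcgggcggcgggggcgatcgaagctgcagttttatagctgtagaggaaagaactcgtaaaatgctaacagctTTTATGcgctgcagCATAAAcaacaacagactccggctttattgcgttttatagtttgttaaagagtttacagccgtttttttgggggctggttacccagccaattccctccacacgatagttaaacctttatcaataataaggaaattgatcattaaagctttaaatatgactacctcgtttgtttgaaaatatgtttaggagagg
Hoxd9 (ENSMUSG00000043342), chr2:74697513-74697812, plus strand: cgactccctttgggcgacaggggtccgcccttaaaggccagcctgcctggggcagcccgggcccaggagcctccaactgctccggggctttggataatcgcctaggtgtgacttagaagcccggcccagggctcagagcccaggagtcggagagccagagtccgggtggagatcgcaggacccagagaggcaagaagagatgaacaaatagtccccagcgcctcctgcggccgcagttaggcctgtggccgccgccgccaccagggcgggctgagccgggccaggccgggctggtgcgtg
Hoxd13 (ENSMUSG00000001819), chr2:74667975-74668274, plus strand: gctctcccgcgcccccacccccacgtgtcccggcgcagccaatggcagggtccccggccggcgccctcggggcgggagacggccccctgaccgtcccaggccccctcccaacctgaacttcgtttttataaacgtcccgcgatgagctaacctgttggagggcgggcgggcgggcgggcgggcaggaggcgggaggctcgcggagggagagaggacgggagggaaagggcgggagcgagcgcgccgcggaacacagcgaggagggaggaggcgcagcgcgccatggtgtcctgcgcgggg
The Hoxb8 window held 13 CpG pairs and 2 matches of TTTATG, while the Hoxd9 window held 20 CpG pairs and the Hoxd13 window 37, with no match in either. Among the 24 Hox promoters the median was 14.5 CpG pairs, against 7 among all 32851 promoters of the table. On either strand, TTTATG was in 20.83% of Hox promoters and 11.85% of all promoters, the nuclear receptor half-site AGGTCA was in 29.17% and 16.26%, and the HOX-PBX motif TGATTNAT in 8.33% and 3.22%. These are letter matches and not sites shown to be bound.

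The members differed widely in level. Of the 39, 30 reached 1 FPKM in at least 1 library, 7 reached it in all 19 libraries and 9 in none. Those under 1 FPKM throughout were Hoxa4, Hoxb1, Hoxb2, Hoxc11, Hoxd1, Hoxd3, Hoxd4, Hoxd11 and Hoxd12, so 5 of the 9 were in the Hoxd cluster. Hoxd12 had 0 counts in all 14 reprogramming libraries and 3 in MEFs. In MEFs the highest members were Hoxb9 at 27.9 FPKM and Hoxc8 at 26.7, both used in the thoracic region, and the highest of the Hoxa and Hoxd clusters were Hoxa5 at 12.3 and Hoxd8 at 11.6. With crotonic acid, the number of members at 1 FPKM or more was 23 and 24 at day 20, 23 and 22 at day 24, and 20 and 21 at day 28. Without it, the number was 24 in MEFs, 24 and 25 at day 16, 22 and 22 at day 20, 22 and 21 at day 24, and 18 and 21 at day 28. It was 17, 13 and 16 in the three-step line and both crotonic acid lines and 20 in ES cells.

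**Figure D1:**
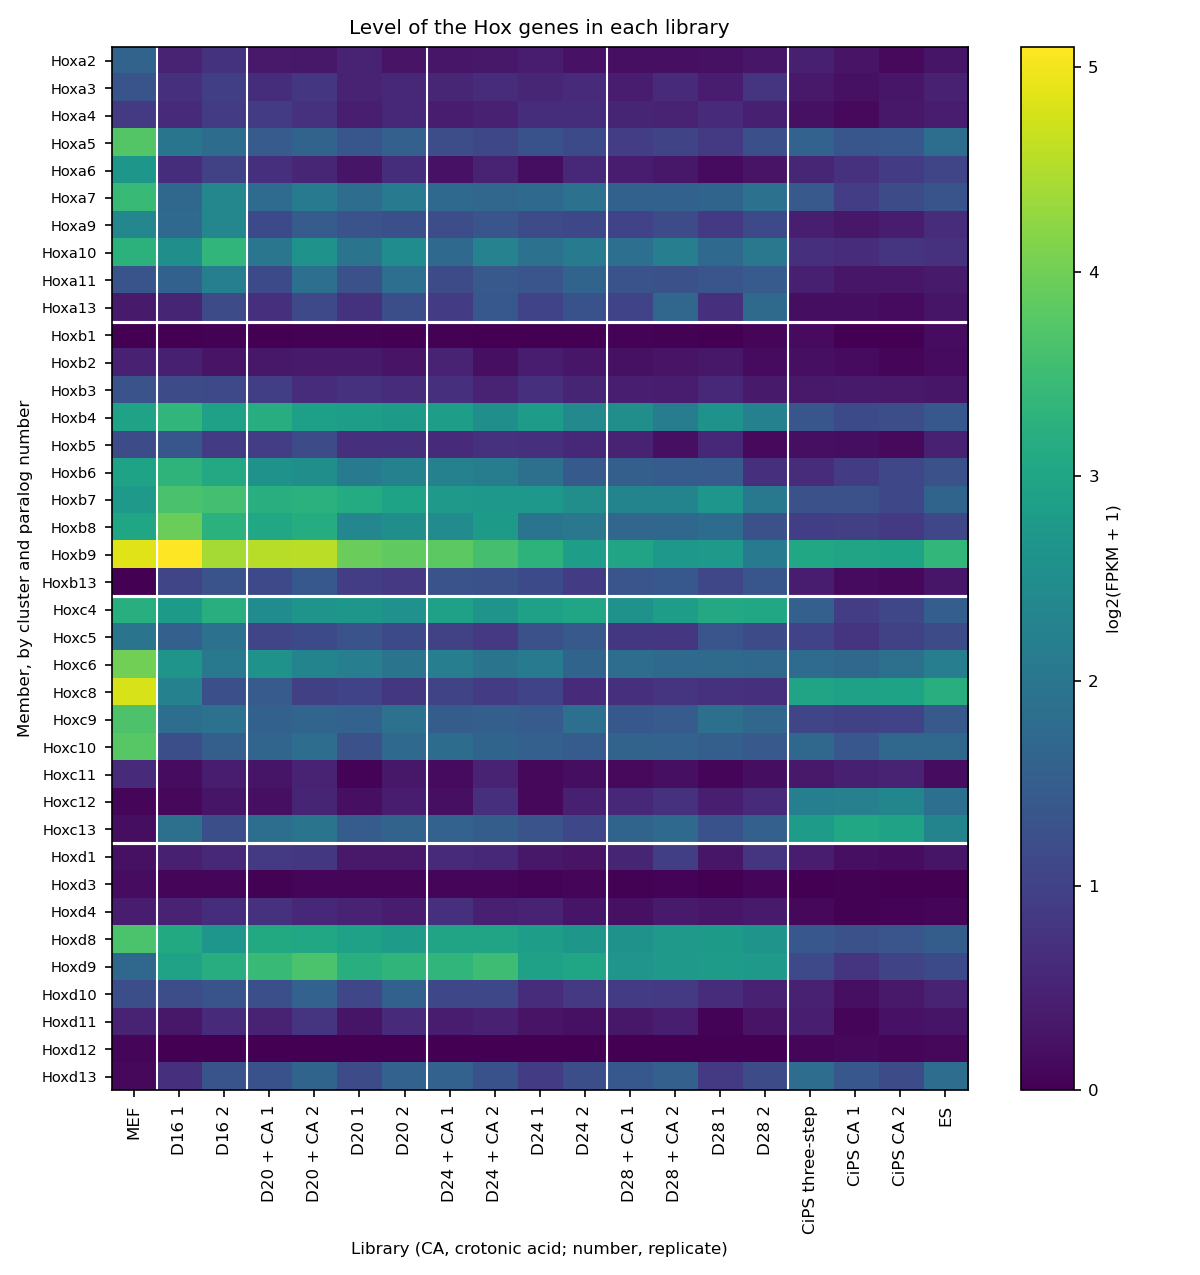
Level of 38 Hox genes (rows, by cluster and paralog number) in each of the 19 libraries (columns), as log2(FPKM + 1) on the colour scale; white lines part clusters and stages. Hoxb9 and Hoxc8 are the brightest in MEFs, Hoxb4 to Hoxb9 grow darker over days 16 to 28, and Hoxc12 and Hoxc13 are brightest in the CiPS lines.

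The 4 clusters followed different courses. The Hoxc cluster summed to 78.1 FPKM in MEFs, 23.6 and 22.1 at day 16, 18.4 and 17.9 at day 28, and 25.5, 24.3 and 25.9 in the lines. The Hoxb sum was 57.4 FPKM in MEFs, 81.7 and 57.4 at day 16, 38.2 and 36.8 at day 20, 28.7 and 22.1 at day 24, 22.7 and 14.4 at day 28, and 12.7, 11.98 and 11.7 in the lines. The Hoxd sum was 16.4 in MEFs, 17.3 and 18.1 at day 16, 13.8 and 13.8 at day 28, and 6.53, 4.18 and 4.55 in the lines. So the Hoxc sum was low by day 16, the Hoxb sum at day 16 was at or above its MEF value and then lower at each later day, and the Hoxd sum differed little between MEFs and day 28 and was lowest in the lines and ES cells. The Hoxa sum was 47.4 in MEFs, 19.7 and 32.0 at day 16, 12.8 and 19.9 at day 28, and 8.33, 5.85 and 6.57 in the lines.

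**Figure D2:**
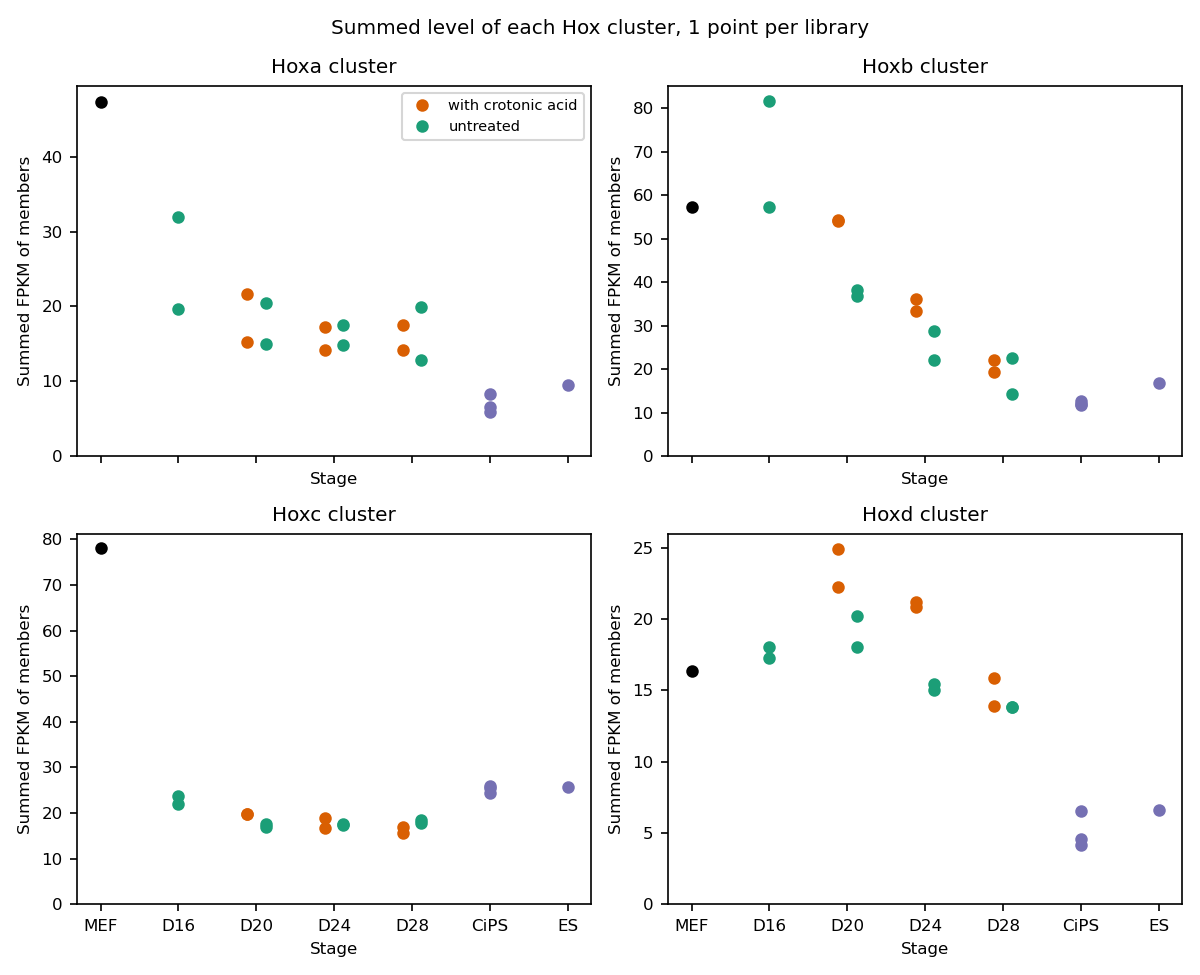
Summed FPKM of the members of each cluster (y axis, from 0) by stage (x axis), with 1 point per library; orange points are cells with crotonic acid, drawn left of the untreated cells of the same day in green, black is MEF, and purple points are the 3 CiPS lines and ES cells. The Hoxc sum is low by day 16, whereas the Hoxb sum is lower at day 28 than at day 16.

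By day 16 Hox genes had changed in both directions. Relative to MEFs, 15 of the 36 members tested had changed (edgeR's quasi-likelihood test, Benjamini-Hochberg adjusted p under 0.05), 6 higher and 9 lower, while 32.7% of all genes tested were called. The members called higher were 16.7% of those tested, close to the 17.4% of all genes. The members called lower were 25.0%, against 15.3% of all genes. Changes are log2 fold changes with standard errors, and the lone MEF library is taken to vary as the replicated groups do.

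The members that fell lay mostly in the Hoxc and Hoxa clusters. Hoxc10, used in the lumbar region and hindlimb, had 1.34 and 1.93 FPKM at day 16 against 12.6 in MEFs and fell by 2.92 ± 0.33 on the log2 scale (adjusted p = 3.42e-05). Its neighbour Hoxc9 had 2.61 and 2.80 FPKM at day 16 against 11.8 in MEFs and fell by 2.10 ± 0.27 (adjusted p = 8.43e-05). Hoxc8, a patterning gene of the thoracic skeleton, had 3.69 and 1.36 FPKM against 26.7 and fell by 3.36 ± 0.47 (adjusted p = 0.000176). Both day 16 libraries were below the MEF library in each of these genes. Hoxc6 had 5.25 and 3.16 FPKM at day 16 against 15.2 in MEFs and also fell (-1.82 ± 0.32, adjusted p = 0.000819). Hoxa5, needed for lung development, had 2.94 and 2.48 FPKM at day 16 against 12.3 in MEFs, a fall of 2.15 ± 0.31 (adjusted p = 0.000202). Hoxa2, Hoxa6, Hoxa7 and Hoxd8 fell as well, with log2 changes between -2.77 in Hoxa6 and -0.80 in Hoxd8. Hoxc8, Hoxc9, Hoxc10 and Hoxc6 lie within the annotated span of Hoxc5 on the same strand, and Hoxa4, Hoxa5 and Hoxa6 within that of Hoxa3, so reads may have been divided among them.

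Of the members that rose, 4 were posterior. Hoxc13, a regulator of hair and nail formation, had 2.68 and 1.35 FPKM at day 16 against 0.132 in MEFs and rose by 3.94 ± 0.50 (adjusted p = 8.48e-05). Hoxd13, known for its part in digit formation, had 0.612 and 1.498 FPKM against 0.0750 and rose by 3.80 ± 0.82 (adjusted p = 0.00337). Hoxb13, a gene of the tail end of the axis, had 129 counts at day 16 (1.10 and 1.48 FPKM) and 0 in MEFs, at least 26.3-fold higher with a floor of 3 counts over the MEF library. Hoxd9 had 6.71 and 7.99 FPKM at day 16 against 2.27 in MEFs, a rise of 1.73 ± 0.27 (adjusted p = 0.000404). Hoxb7 had 11.3 and 10.8 FPKM against 5.79 and rose by 0.97 ± 0.29 (adjusted p = 0.0203). Each of these genes was above its MEF level in both day 16 libraries.

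Genes that act on Hox clusters or with Hox proteins also differed at day 16, when 32.7% of all genes tested were called relative to MEFs. Of 10 tested upstream activators 5 rose and 3 fell. Cdx2, a homeodomain activator of central and posterior Hox genes, had 3.65 and 9.87 FPKM at day 16 against 0.0206 in MEFs. Rarb, a retinoic acid receptor that retinoic acid itself induces, had 36.7 and 14.4 FPKM at day 16 against 0.951 in MEFs and rose by 4.78 ± 0.83 (edgeR, adjusted p = 0.000765). Cyp26a1, the enzyme that breaks retinoic acid down, had 289 and 350 FPKM at day 16 against 0.473 in MEFs and rose by 9.42 ± 0.52 (edgeR, adjusted p = 2.42e-07). Cdx1 and Kmt2b rose too, while Rara, Rarg and Aldh1a2, which makes retinoic acid, fell. None of the 9 TALE cofactors, the partners with which Hox proteins bind DNA, rose, and 5 fell: Meis1 had 2.84 and 2.17 FPKM at day 16 against 7.59 in MEFs, and Pbx3, Meis2, Meis3 and Pknox2 were the others. Of 17 Polycomb genes 5 rose and 3 fell, with Cbx7 (2.56 ± 0.35) and Jarid2 (2.08 ± 0.21) the largest changes. Of the ParaHox genes, relatives of the Hox genes outside the clusters, Gsx2 had 17.1 and 25.9 FPKM at day 16 and was listed at 0 in MEFs. Of 12 tested neighbours of the clusters 1 rose (Smug1) and 2 fell (Calcoco1 and Lnpk), and of 8 noncoding RNAs of the clusters 1 fell (Hoxaas2).

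These calls have limits that bear on single members. When day 16 and MEF libraries were fitted alone, with 1 degree of freedom left, 6 of the members were called. Under total-count scaling, the median over all genes was 0.36 in place of 0.03 on the log2 scale, that of the members was 0.21 in place of -0.13, and Hoxd8 was not called. Markers of other cells moved too: 6 of 8 fibroblast and 5 of 6 macrophage markers fell, and 7 of 7 extraembryonic endoderm markers rose, to sums of 1066 and 1455 FPKM at day 16 against 368.9 in MEFs. Their part in the result was not tested.

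Between days 16 and 28 without crotonic acid, no member rose and 11 of 36 fell, 6 of them in the Hoxb cluster (edgeR's quasi-likelihood test; 17 members had an unadjusted p under 0.05). At day 28, 30.6% of the members were called lower than at day 16, against 6.8% of all genes, while 10.1% of all genes were called higher (16.9% in either direction). More members were called lower at each later day, as were more of all genes. Relative to day 16, 1 member was lower at day 20, against 0.575% of all genes lower and 1.66% higher (2.23% called in all). At day 24, 5 were lower, against 3.08% of all genes lower (8.08% called in all). Changes from day 20 to 24 and from day 24 to 28 were not tested. The median log2 change of the tested members at day 28 was -0.82, with -1.68 for Hoxb, -0.77 for Hoxa, -0.34 for Hoxd and -0.26 for Hoxc, and 0.01 over all genes.

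Hoxb9, the highest member in MEFs and at days 16 and 20, had 33.2 and 20.2 FPKM at day 16, 14.2 and 13.4 at day 20, 8.75 and 6.23 at day 24, and 5.66 and 3.34 at day 28. Its libraries did not overlap between any of these days. It fell by 2.58 ± 0.30 by day 28 (adjusted p = 0.000397) and by 1.84 ± 0.29 by day 24 (adjusted p = 0.00406). Hoxb8, a gene of blood progenitors and the thoracic spinal cord, had 14.5 and 8.55 FPKM at day 16, 4.13 and 4.80 at day 20, 2.90 and 3.14 at day 24, and 2.47 and 1.42 at day 28. It was the only member already called at day 20 (-1.37 ± 0.29, adjusted p = 0.0405) and fell by 2.58 ± 0.31 by day 28 (adjusted p = 0.000487). The day 20 call was lost without either day 20 library or without day 16 replicate 1, and with both liver-marked libraries left out. Hoxb6 had 8.997 and 7.46 FPKM at day 16, 3.35 and 3.73 at day 20, 2.70 and 1.70 at day 24, and 1.76 and 0.625 at day 28, a fall of 2.80 ± 0.40 (adjusted p = 0.00135). Hoxb7 fell less, by 1.38 ± 0.23 (adjusted p = 0.0031), with 11.3 and 10.8 FPKM at day 16, 7.77 and 6.80 at day 20, 5.58 and 4.73 at day 24, and 5.38 and 3.18 at day 28. Hoxb4, a gene that expands blood stem cells, had 9.29 and 6.53 FPKM at day 16 and 5.08 and 3.72 at day 28, and did not pass without the replicate number in the model.

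**Figure D3:**
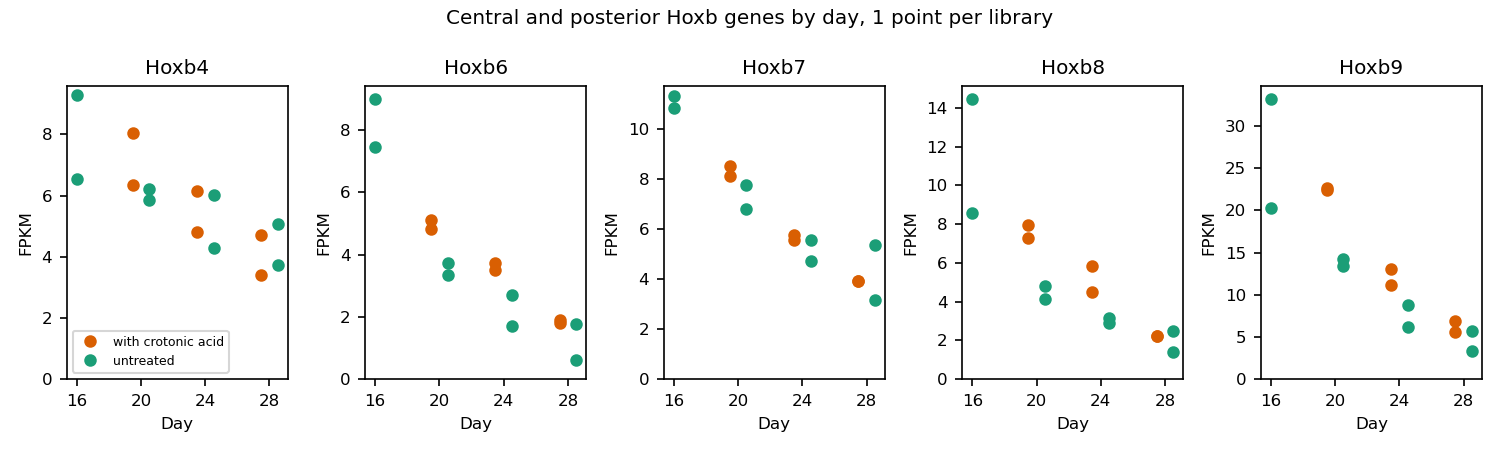
FPKM (y axes, each from 0) of Hoxb4, Hoxb6, Hoxb7, Hoxb8 and Hoxb9 by day (x axes), 1 point per library; orange points are cells with crotonic acid, drawn left of the untreated cells of the same day in green. Hoxb9 without crotonic acid lies at 33.2 and 20.2 FPKM on day 16 and at 5.66 and 3.34 on day 28, and its day 20 points with crotonic acid lie at 22.4 and 22.6.

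Outside the Hoxb cluster the fallers were Hoxa5, Hoxa9, Hoxa10, Hoxc8 and Hoxd10. Hoxa9, a gene of blood progenitors and of the posterior axis, had 2.35 and 4.15 FPKM at day 16 and 0.812 and 1.19 at day 28, a fall of 1.70 ± 0.31 (adjusted p = 0.00501). Hoxa10, known from the uterus and the lumbar spine, had 4.83 and 9.19 FPKM at day 16 and 2.35 and 3.13 at day 28 (-1.36 ± 0.40, adjusted p = 0.0404). The Hoxa10 call was lost in 7 of 14 alternatives, among them limma-voom, either day 28 library left out and day 16 replicate 2 left out. Leaving out a single library also ended the calls of Hoxc8 (day 16 replicate 1 or either day 28 library), Hoxb5 (day 16 replicate 1 or day 28 replicate 2), Hoxa5 (day 28 replicate 1), and Hoxb3 and Hoxd10 (day 28 replicate 2). In the Hoxb cluster Hoxb3, with 1.29 and 1.19 FPKM at day 16 and 0.479 and 0.300 at day 28, also fell (-1.68 ± 0.36, adjusted p = 0.0101). Members that did not pass included Hoxc4, with 5.88 and 8.13 FPKM at day 16 and 7.40 and 7.32 at day 28, and Hoxd9, with 6.71 and 7.99 at day 16 and 5.98 and 5.69 at day 28. Hoxb13 at 1.11 and 1.59 FPKM and Hoxd13 at 0.820 and 1.25 on day 28 also overlapped their day 16 values.

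Deviations from the group means were shared between libraries of one replicate number, and a model with that number as a block called more members lower than day 16: 7 at day 20, 12 at day 24 and 17 at day 28, with none higher. The share of all genes called in either direction was then 9.95%, 20.5% and 31.0%, and the share called lower 4.39%, 9.47% and 14.2%. Hoxb4 was among the added members at day 28 (-0.85 ± 0.14, edgeR with the block, adjusted p = 0.00128). Within the day 16 pair, 14 members were higher in replicate 1, among them 8 of the 10 Hoxb members but 1 of the 11 Hoxa members, and 24 were higher in replicate 2. Without day 28 replicate 2, 7 members were called lower at day 28, and without day 24 replicate 2, 1 was called lower at day 24, against 3 without day 24 replicate 1.

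Fewer of the surrounding genes moved over these days without the block. Of all genes, 16.9% were called at day 28 relative to day 16, and 31.0% with the block. At day 28, 4 of 9 TALE cofactors fell relative to day 16, namely Pbx3, Meis2, Meis3 and Pknox2, and Pknox1 rose. Of the upstream activators Aldh1a2 fell, of the Polycomb genes Ezh1 and Cbx7 rose, and no cluster neighbour was called. With the block the counts were 1 higher and 5 lower for TALE cofactors, 1 and 4 for activators, and 4 and 1 for Polycomb genes. Hoxb5os, a noncoding RNA antisense to Hoxb5 and Hoxb6, had 1.10 and 0.458 FPKM at day 28 against 3.68 and 3.67 at day 16 and fell by 2.25 ± 0.62 (edgeR, adjusted p = 0.0308). Reads of Hoxb5 and Hoxb6 cannot be told from those of Hoxb5os where they overlap unless strand was used in counting, and the sources used here do not give that. Over the same days 4 of 8 fibroblast markers fell and 1 rose, 3 of 6 tested neural and 3 of 6 muscle markers fell, and 5 of 6 pluripotency and 2 of 7 extraembryonic endoderm markers rose. Their part in the result was not tested. The Hoxb9, Hoxb8 and Hoxb7 annotations overlap no other gene.

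Crotonic acid was compared with untreated cells of the same day. No member passed on day 20, 24 or 28 by edgeR's quasi-likelihood test, when 0% of all genes tested passed on each of these days. At an unadjusted p under 0.05 there were 4 members at day 20, 5 at day 24 and 1 at day 28, among 585, 821 and 943 genes. For the mean effect over the 3 days, again no member passed, with 0.604% of all genes called higher and 0.431% lower (1.04% in all), and 10 members among 2105 genes at an unadjusted p under 0.05. With the replicate block, 3 members passed for the mean effect, 2 higher and 1 lower, which is 8.33% of the members tested against 7.42% of all genes, and 0 passed on each single day, with 0.0345%, 0.535% and 0.615% of all genes called at days 20, 24 and 28 (0.023% called higher at day 20) and 9, 7 and 6 members at an unadjusted p under 0.05. The share of all genes called was not worked out for the 2 blocked fits with fewer libraries that follow, so their counts of members have no background beside them. Hoxb6 had an unadjusted p of 0.00514 in the full blocked fit and 0.00527 without the day 16 libraries, with adjusted p of 0.0621 and 0.0426 (edgeR). The blocked count for the mean effect was 8 without the day 16 libraries, 7 higher and 1 lower, and 1 without both liver-marked libraries. On the single days it was 0 in both of these fits.

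Hoxb9 was higher with crotonic acid in the blocked model. It had 22.4 and 22.6 FPKM with crotonic acid against 14.2 and 13.4 without at day 20, 13 and 11.2 against 8.75 and 6.23 at day 24, and 6.87 and 5.56 against 5.66 and 3.34 at day 28. The libraries with crotonic acid lay above the untreated ones at days 20 and 24 and overlapped them at day 28. The mean effect was 0.63 ± 0.11 with the block (adjusted p = 0.00657) and 0.62 ± 0.16 without it (adjusted p = 0.121). Leaving out both liver-marked libraries gave 0.58 with the block (adjusted p = 0.0389).

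Hoxd1, which guides the wiring of pain-sensing neurons in the mouse, and Hoxc5, of the neck region, were the other calls. Hoxd1 had 0.822 and 0.767 FPKM with crotonic acid against 0.280 and 0.272 without at day 20, 0.543 and 0.492 against 0.248 and 0.200 at day 24, and 0.447 and 0.918 against 0.246 and 0.709 at day 28, where the groups overlapped. Its mean effect was 1.07 ± 0.27 with the block (adjusted p = 0.0376), and the adjusted p without it was 0.134. Hoxc5 had 1.09 and 1.21 FPKM with crotonic acid against 1.47 and 1.22 without at day 20, 1.02 and 0.807 against 1.40 and 1.70 at day 24, and 0.779 and 0.743 against 1.53 and 1.24 at day 28. It was lower in each crotonic acid library than in any untreated library of its day, and its mean effect was -0.62 ± 0.15 with the block (adjusted p = 0.0297) and the adjusted p without it 0.0942. Since Hoxc5 spans Hoxc6, Hoxc8, Hoxc9 and Hoxc10, its own counts are uncertain. Without both liver-marked libraries neither gene was called (blocked adjusted p = 0.0716 for Hoxd1 and 0.128 for Hoxc5), and Hoxb9 was the only member called with the block.

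Tested members, called or not, lay on either side of no change by cluster. In the mean effect, all 7 tested Hoxd members and 8 of 9 Hoxb members had a positive log2 fold change, against 6 of 9 Hoxc and 4 of 11 Hoxa members. Without the block the median was 0.52 for Hoxd, 0.30 for Hoxb, 0.28 for Hoxc, -0.02 for Hoxa and -0.01 over all genes. Hoxd9, Hoxb8 and Hoxb6 were among the members that did not pass with all 14 libraries. Hoxd9 had 9.99 and 11.6 FPKM with crotonic acid against 8.17 and 9.07 without at day 20, 9.27 and 10.4 against 6.59 and 7.14 at day 24, and 5.35 and 5.73 against 5.98 and 5.69 at day 28, with a mean effect of 0.25 ± 0.07 with the block (adjusted p = 0.064). Hoxb8 had 7.29 and 7.95 FPKM with crotonic acid against 4.13 and 4.80 at day 20, and 2.21 and 2.24 against 2.47 and 1.42 at day 28, with a mean effect of 0.58 ± 0.16 (blocked, adjusted p = 0.0581). Hoxb6 had 5.11 and 4.82 FPKM with crotonic acid against 3.35 and 3.73 at day 20 and 1.91 and 1.81 against 1.76 and 0.625 at day 28 (0.63 ± 0.18, blocked, adjusted p = 0.0621). Without the day 16 libraries the blocked adjusted p was 0.0349 for Hoxd9, 0.0172 for Hoxb8 and 0.0426 for Hoxb6, and without both liver-marked libraries it was 0.297, 0.202 and 0.187.

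**Figure D4:**
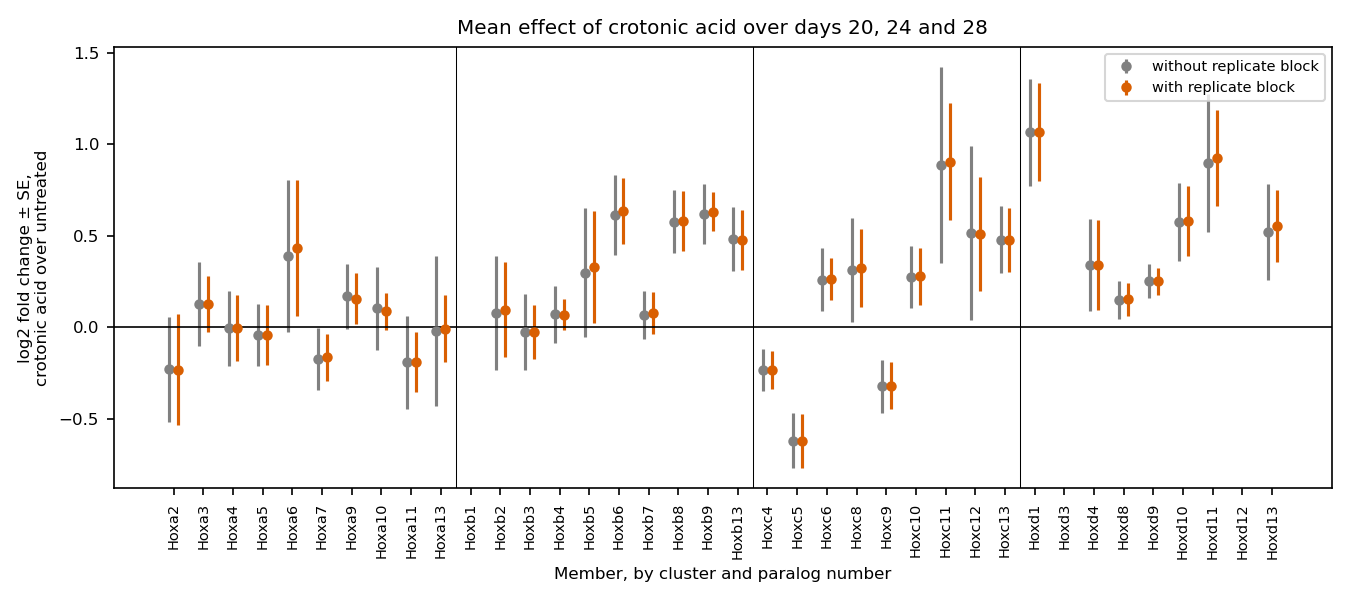
Mean effect of crotonic acid over days 20, 24 and 28 on tested members (y axis, log2 fold change of crotonic acid over untreated, error bars 1 standard error) by cluster and paralog number (x axis), without (grey) and with (orange) the replicate block. Hoxb9 at 0.63 and Hoxd1 at 1.07 lie above 0 and Hoxc5 at -0.62 below it; Hoxb1, Hoxd3 and Hoxd12 were not tested.

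Read library by library, the differences were more one-sided at day 20 than at day 28. At day 20 both crotonic acid libraries were above both untreated ones in 15 of the 39 members and below in 1, at day 24 in 13 and 4, and at day 28 in 7 and 6. For shares, genes had to pass a cut of a mean of at least 0.1 FPKM over the reprogramming libraries. Among all 19454 genes past it, the shares above and below were 16.7% and 17.3% at day 20, 15.1% and 15.3% at day 24, and 15.5% and 15.4% at day 28. Among the 36 members past it they were 41.7% and 2.78%, 36.1% and 11.1%, and 19.4% and 16.7% on these days. Hoxb6 and Hoxc13 were above on all 3 days (3.27% of all genes past the cut were) and Hoxc5 below on all 3 (2.45% of all genes past the cut). The crotonic acid effect at day 28 did not differ from that at day 20 in any member by the test of the difference itself (edgeR, 0 members called with or without the block, 0% of all genes, with 0 and 2 members at an unadjusted p under 0.05).

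Cdx2 was higher with crotonic acid where the block was used. It had 8.71 and 16.6 FPKM with crotonic acid against 4.49 and 8.51 without at day 20, 9.79 and 18.2 against 3.197 and 5.26 at day 24, and 9.89 and 15.0 against 4.44 and 8.35 at day 28. In each day and replicate the crotonic acid library was above its untreated partner, and the mean effect was 1.22 ± 0.10 with the block (adjusted p = 0.00013) and 1.21 ± 0.33 without it (adjusted p = 0.126). Of the 10 tested upstream activators, Cdx1 also rose with the block (1.80 ± 0.33, adjusted p = 0.00994) and Cyp26a1 fell (-0.36 ± 0.08, adjusted p = 0.0248). No TALE cofactor, Polycomb gene or cluster noncoding RNA was called, 1 neighbour (Calcoco2) rose, and the ParaHox gene Gsx2 fell (-0.39 ± 0.11, adjusted p = 0.0489). With the block, 7.42% of all genes were called for the mean effect.

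Markers of other cells moved in the same libraries. The 7 extraembryonic endoderm markers summed to 743.6 and 1050 FPKM with crotonic acid against 1117 and 1339 without at day 20, 909.8 and 1138 against 1388 and 1847 at day 24, and 1306 and 1527 against 1726 and 2398 at day 28, and 5 of 7 fell with the block. The 8 fibroblast markers summed to 571.6 and 412.5 FPKM with crotonic acid against 489.6 and 394.4 without at day 20, 389.6 and 343.3 against 423.4 and 343.7 at day 24, and 281.5 and 294.6 against 355.9 and 284.9 at day 28. Of these, Thy1 and Twist1 rose and Postn fell with the block. No marker of either list was at 0 in these libraries, and the part of these cells in the Hox differences was not tested.

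The finished lines were compared with the untreated day 28 culture. Of 36 tested members, 25 were called (69.4%), 6 higher and 19 lower, against 59.5% of all genes. Members called higher were 16.7% of those tested, against 29.1% of all genes. Members called lower were 52.8%, against 30.4% of all genes. The 19 lay in every cluster, 8 in Hoxa, 4 in Hoxb, 3 in Hoxc and 4 in Hoxd.

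Among the members that fell was Hoxd9. It had 1.18, 0.704 and 1.07 FPKM in the three-step line and both crotonic acid lines against 5.98 and 5.69 at day 28, a fall of 2.57 ± 0.19 (adjusted p = 2.6e-07). Hoxd8 had 1.61, 1.40 and 1.53 FPKM in the lines against 5.90 and 5.25 at day 28 (-1.89 ± 0.16, adjusted p = 9e-07). Hoxc4 had 1.96, 0.896 and 1.11 FPKM in the lines against 7.40 and 7.32 at day 28 (-2.48 ± 0.26, adjusted p = 5.16e-06). In these 3 genes all lines lay below both day 28 libraries. Hoxb7 had 1.42, 1.40 and 1.16 FPKM in the lines against 5.38 and 3.18 (-1.70 ± 0.22, adjusted p = 2.31e-05), and Hoxb4 had 1.56, 1.21 and 1.31 against 5.08 and 3.72 (-1.70 ± 0.24, adjusted p = 6.73e-05). Hoxb13 had 0.330, 0.106 and 0.0811 FPKM in the lines against 1.11 and 1.59 at day 28 (-2.93 ± 0.44, adjusted p = 9.15e-05). Hoxa10 had 0.607, 0.560 and 0.725 FPKM in the lines against 2.35 and 3.13 at day 28 (-2.13 ± 0.34, adjusted p = 0.000173).

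Of the 6 members that rose, 3 were in the Hoxc cluster. Hoxc13 had 6.05, 7.21 and 6.61 FPKM in the lines against 1.43 and 1.96 at day 28 and rose by 1.96 ± 0.28 (adjusted p = 7.09e-05). Hoxc12, its neighbour, had 3.57, 3.65 and 4.03 FPKM in the lines against 0.346 and 0.529 and rose by 3.06 ± 0.60 (adjusted p = 0.000776). Hoxc8 had 6.85, 6.57 and 6.79 FPKM in the lines against 0.665 and 0.610 and rose by 3.39 ± 0.44 (adjusted p = 2.84e-05). For each of these genes the lines were close to each other and above both day 28 libraries. Hoxa5, Hoxa6 and Hoxb9 were the other calls, with Hoxb9 at 7.22, 6.92 and 6.81 FPKM in the lines against 5.66 and 3.34 at day 28 (0.62 ± 0.25, adjusted p = 0.0442). These 3 calls were lost under several alternatives, including the lines of the crotonic acid method alone for Hoxa5 and Hoxb9 and day 28 replicate 1 left out for Hoxa5 and Hoxa6.

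Fibroblast and macrophage markers were also higher in the lines than at day 28. The fibroblast sums were 1781, 2061 and 2408 FPKM in the lines against 355.9 and 284.9 at day 28, with 6 of 8 markers called higher, and 5 of 6 macrophage markers were called higher. Their part in the higher Hoxc8, Hoxa5, Hoxa6 and Hoxb9 was not tested. Hoxc12 and Hoxc13 were at 0.0452 and 0.132 FPKM in the MEF library, below their level in every line.

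Relative to MEFs, 32 of 36 members differed in the lines, 27 lower and 5 higher, against 27.4% and 25.7% of all genes (53.1% called in all). All 15 central members fell, as did 4 of 6 anterior and 8 of 15 posterior members tested. The falls with the smallest p were in Hoxd8, with 1.61, 1.40 and 1.53 FPKM in the lines against 11.6 in MEFs (-2.96 ± 0.19, adjusted p = 2.22e-07), in Hoxc9, with 1.10, 1.005 and 1.05 against 11.8 (-3.52 ± 0.24, adjusted p = 3.63e-07), and in Hoxa9, with 0.341, 0.261 and 0.329 against 4.16 (-3.77 ± 0.31, adjusted p = 1.21e-06). By size Hoxa10 fell furthest, with 0.607, 0.560 and 0.725 FPKM in the lines against 8.70 in MEFs (-3.81 ± 0.39, adjusted p = 6.9e-06). Hoxb13, Hoxc12, Hoxc13 and Hoxd13 were among the members higher than in MEFs. Hoxc13 rose by 5.59 ± 0.51 (adjusted p = 3.15e-06). Hoxd13 had 2.56, 1.61 and 1.28 FPKM in the lines against 0.0750 and rose by 4.53 ± 0.81 (adjusted p = 0.000492). Hoxc12 had 264 counts over the lines and 1 in MEFs, a ratio of 97.7 per total count with an exact 95% interval of 17.4 to 3875 for counting error only. In ES cells relative to MEFs 24 members were called lower and 5 higher, against 20.1% of all genes in each direction (40.2% in all).

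The size of the fall from MEFs can be set beside that of fibroblast markers. Of the 24 members at 1 FPKM or more in MEFs, levels in the 3 lines and ES cells were 4.8% to 53.5% of the MEF level, with a median of 16.4%. The 8 fibroblast markers were at 6.77% to 73.4% of their MEF level in the same libraries, with a median of 14.1%. In 21 of the 24 members all 4 libraries lay within the range of the markers, 3 had a library below it and 0 had one above it. These members were taken for their level in MEFs, and the markers are fibroblast genes, so the choice itself favours levels below MEFs. The 15 members under 1 FPKM in MEFs are outside this count. Fn1 alone set the top of that range, at 55.6% to 73.4%, and the other markers reached at most 28.2% (Col1a1 in ES cells). Hoxd9 was above 28.2% in all 4 libraries, at 51.8%, 31.0% and 47.1% in the lines and 53.5% in ES cells. Hoxb5, Hoxb7, Hoxb9, Hoxc5, Hoxc8 and Hoxd10 were above it in at least 1 library, and the rest of the 24 in none. How much of the Hox signal in the lines and ES cells comes with this fibroblast signal was not tested. Outside the full range of the markers lay Hoxc13, at 4573%, 5449% and 4994% of its MEF level in the lines and 2976% in ES cells, and likewise Hoxc12 and Hoxd13, each above its MEF level in all 4 libraries.

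**Figure D5:**
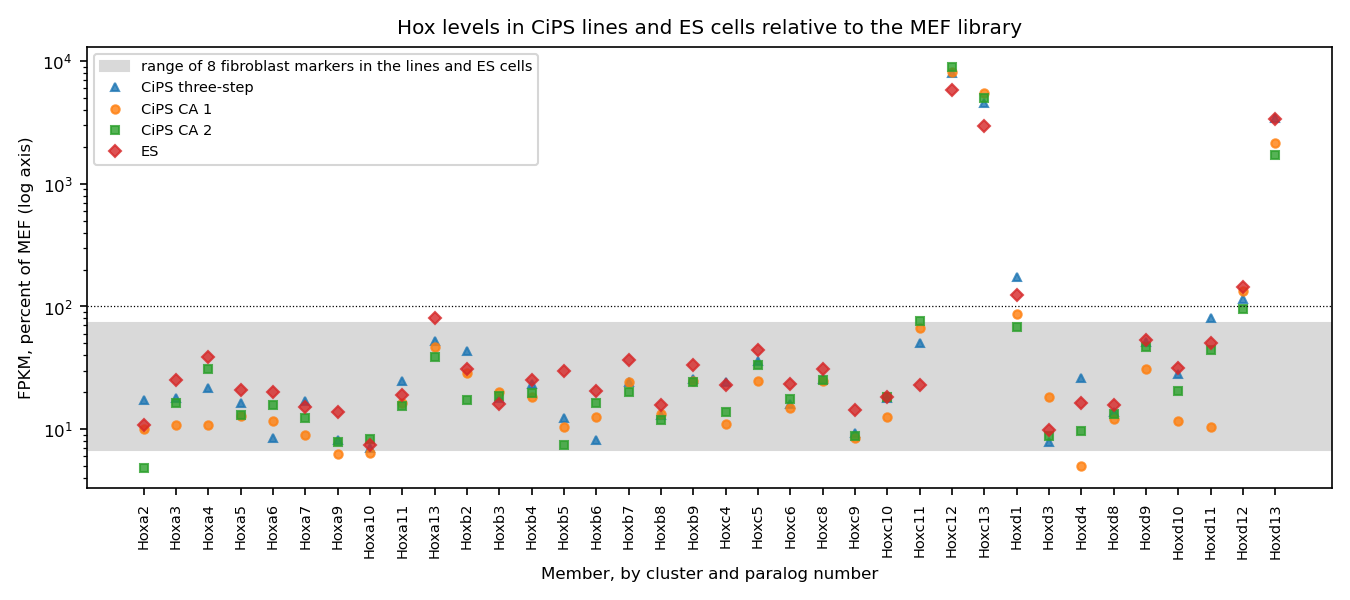
FPKM of members in the 3 CiPS lines and in ES cells as a percent of the MEF library (y axis, log scale) by cluster and paralog number (x axis); the grey band is the range of 8 fibroblast markers in the same libraries, 6.77% to 73.4%, and the dotted line is the MEF level. Fn1 alone sets the band above 28.2%. Most members lie inside the band, and Hoxc12, Hoxc13 and Hoxd13 lie above the MEF level in all 4 libraries. Hoxb1 and Hoxb13, at 0 in MEFs, are not drawn.

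No member differed between CiPS lines and ES cells by edgeR's quasi-likelihood test, where 0.0204% of all genes were called and 4 members were among 589 genes at an unadjusted p under 0.05. Of 36 tested members 31 were lower in the lines than in ES cells, with a median log2 change of -0.30, against 0.01 over all genes. The 8 fibroblast markers also had a median of -0.30 in this comparison, with 0 called. Other marker lists, also with 0 called, had medians of -1.24 (macrophage), -0.21 (muscle), -0.17 (neural), 0.04 (extraembryonic endoderm) and 0.20 (pluripotency). The part of any of these cells in the lower Hox values was not tested. Hoxb9 had 7.22, 6.92 and 6.81 FPKM in the lines and 9.37 in ES cells, and Hoxc13 had 6.05, 7.21 and 6.61 in the lines and 3.94 in ES cells. With 1 ES library a p that misses the threshold does not show that these levels are alike.

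Genes around the clusters differed as well between the lines and day 28, a comparison in which 59.5% of all genes were called, 29.1% higher and 30.4% lower. Cdx1 had 29.9, 11.1 and 15.5 FPKM in the lines against 0.204 and 0.312 at day 28, while Cdx2 had 0.752, 0.769 and 0.613 against 4.44 and 8.35. Rarb (-5.28 ± 0.58, edgeR, adjusted p = 6.39e-06) and Cyp26a1 (-11.40 ± 0.34, edgeR, adjusted p = 2.45e-10) fell, and in all 6 of 10 upstream activators rose and 4 fell. Of 17 Polycomb genes 8 rose and 5 fell: the Polycomb repressive complex members Ezh2 (1.42 ± 0.20), Eed (2.32 ± 0.12) and Suz12 (1.44 ± 0.15) rose, and Ezh1 fell by 1.90 ± 0.19. Of 12 tested cluster neighbours 8 rose and 1 fell, of 8 noncoding RNAs Hoxa11os and Haglr fell, and of 9 TALE cofactors 2 rose and 3 fell, with Meis1 at 0.515, 0.428 and 0.518 FPKM in the lines against 2.56 and 3.23 at day 28.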

How the data were processed

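RNA of 19 mouse libraries was compared; 1 of the 20 deposited value columns has a name found in no label and was left out. The library kit was NEBNext Ultra RNA (NEB), per the labels. The deposited count table holds whole-number read counts per Ensembl gene, and the FPKM values were made by the authors; the aligner, annotation, genome build and use of strand are not stated in the sources at hand. Symbols matched 47224 of 47643 identifiers. Under GENCODE M21 (GRCm38), 15 members overlap another gene on the same strand, 14 one on the opposite strand and 16 neither.

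Counts were tested with edgeR 4.0.16 in R 4.3.3 (low-count filter filterByExpr at 10 counts, TMM scaling, quasi-likelihood F test, 2-sided, Benjamini-Hochberg adjustment over all tested genes, threshold 0.05). The 14 reprogramming libraries were fitted together over 17387 genes, and comparisons with MEFs, ES cells and lines used all 19 libraries over 19597 genes, with the 3 lines as 1 group. Of the 39 members 36 passed the filter; 1 member counted here is not reported by name or drawn. The biological coefficient of variation was 22.96% and 22.16%, and 14.26% with the replicate block. Replicate numbers of the labels paired the samples: in all 21 pairs of groups deviations correlated, with r of 0.2578 to 0.5785, so blocked values are given where they change a call. FPKM levels were compared as deposited. Members at 1 FPKM or more were counted. Exact intervals and floors of 3 counts cover counting error only. The test was tried on simulated data. For crotonic acid at day 28 it recovered 17% of 2-fold and 74% of 4-fold changes, and for day 16 against MEFs 12% and 52%. In each simulation 100 genes changed by each fold, drawn from all tested genes and not matched to Hox levels. In the real day 16 comparison 32.7% of all genes were called, a far larger share, so recovery there may differ from the simulated one. A member that did not pass may still have changed 2-fold. Alternatives were RLE and total-count scaling, no filter, DESeq2 1.42.0, limma 3.58.1 (voom, and log2 of FPKM plus 1 or 0.1), libraries left out, and the block; fits without the 2 liver-marked libraries or without day 16 were added after the data were seen.

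Named members were the 3 highest per cluster, up to 8 called members per comparison by p and those called for crotonic acid; a gene of the surrounding lists was named when called or among the 3 smallest p. The members and lists were chosen with earlier results of these data known.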

Additional observations from a re-analysis of the deposited data

How the results depend on the processing

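Among members called in a comparison with or without the block, no value reversed its direction under any alternative. Called values seldom reverse, so this says little. Values that were not called, and genes outside the clusters, were not in this check. Of the counts of members, 164 moved by at most 1.5 times or were 0 in both fits, and 24 moved by more. At day 20 against day 16, where 1 member was called, DESeq2 called 4, limma on log2(FPKM + 1) and on log2(FPKM + 0.1) called 0 each, the replicate block 7, and fits without the 2 liver-marked libraries 0, or 5 with the block. At day 24, where 5 were called, DESeq2 called 9, the block 12, and the block without the liver-marked libraries 9. At day 28, where 11 were called, the block called 17. Apart from the block with all libraries, the share of all genes called under the alternatives was not worked out. For the mean crotonic acid effect, where 0 were called, DESeq2 called 2 (Hoxb9 and Hoxc5), the block 3, the block without the liver-marked libraries 1, and the block without day 16 libraries 8. Day 16 and MEFs fitted alone gave 6 calls against 15. Leaving out 1 replicate gave 0 to 3 calls at day 20 (3 without day 16 replicate 2), 1 to 6 at day 24, 7 to 12 at day 28, 0 to 1 for the mean crotonic acid effect (1 without day 28 replicate 1), 14 to 15 for day 16 against MEFs, 20 to 24 for lines against day 28 and 31 in each case for lines against MEFs. Where this left 1 library in a group, it was taken to vary as the others do. Members at the threshold in all libraries were 7 at 1 FPKM, 16 at 0.5 and 2 at 2. Calls that held under all alternatives were 6 of 15 for day 16 against MEFs, 0 of 1, 1 of 5 and 5 of 11 for days 20, 24 and 28, 16 of 25 for lines against day 28, and 29 of 32 for lines against MEFs. The causes were not tested. Depth limits members under 1 FPKM, such as Hoxc12 and Hoxd12 in MEFs with 1 and 3 counts.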
